A study of Mus musculus with 7 samples.

Results

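The amino acid transporters were 59 genes of the 55484 rows in the count table. Their symbols name the solute carrier families Slc1, Slc3, Slc6, Slc7, Slc36, Slc38 or Slc43, followed by a member number alone. They were chosen by symbol alone, and Slc38a4 and Slc7a11 were left out by that rule. Slc6a20a and Slc6a20b, whose symbols end in a letter, do not match and were read with the other carriers of amino acids. Levels were compared between 3 libraries from mouse embryonic stem cells (mESCs), pluripotent cells of the early embryo kept in culture, and 4 libraries from mouse embryonic fibroblasts (MEFs), connective tissue cells grown from the embryo. The study gives a C57/Bl6 background for all its MEFs and mESCs, in the methods of its chromatin assay. It describes the transcriptional data as a set that the laboratory already had. No treatment or engineered allele is given in the labels, and the comparison asks which genes differ between a pluripotent and a differentiated cell identity. For its chromatin assay the study sorted MEFs as THY1+ cells and mESCs as THY1-/SSEA1+/EPCAM+ cells, and whether the RNA came from the same sort is not given in the sources used here. The study calls its replicates of the transcriptional data biological and gives fewer for MEFs than the libraries in the count table, while the labels do not say that the libraries came from separate cultures. The p-values measure the spread between these libraries, part of which may be technical.

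The MEF libraries held 11441278, 7312679, 9176467 and 6528643 counts and the mESC libraries 8193825, 8057985 and 7462710, and values per library are given in this order throughout. Of the markers of each cell type, 10 of 10 pluripotency genes were higher in mESCs, with a summed level of 3372 to 3640 CPM (counts per 1000000 counts of the scaled library) in mESCs and 42.9 to 47.3 CPM in MEFs, and 10 of 10 fibroblast genes were lower, at 163 to 189 CPM against 23037 to 39702 CPM. The labels' extraction text speaks of blood stem cells from young and aged mice, which are not the cell types labelled, and the column names carry the letter O in all MEF and Y in all mESC libraries. These letters are not explained in the sources used here, and whatever they mark cannot be told apart from the cell type. All MEF columns begin with MEF1 and all mESC columns with mESC1, while the sample titles run from MEF1 to MEF4 and from mESC1 to mESC3. Whether the shared number of the columns marks a common source of the libraries is not given. Of the 10 blood markers 7 were tested, 2 were higher (Kit and Laptm5) and 2 lower (Cd34 and Cd53), the list summed to 36.9 to 59.3 CPM in MEFs and 92.0 to 100.3 CPM in mESCs, and Ptprc, which marks white blood cells, stayed at 2.04 CPM or less. Endothelial markers summed to 17.0 to 26.1 CPM in MEFs and 32.6 to 56.6 CPM in mESCs (1 of 4 tested genes higher). That gene was Pecam1, at a mean of 2.79 CPM in MEFs and 29.9 CPM in mESCs. Kdr, Tek and Emcn were not called and were lower in their means in mESCs. Of the endothelial genes not tested, Cdh5 had a lower and Cldn5 a higher mean in mESCs. Markers of primitive endoderm and trophoblast summed to 29.4 to 40.9 CPM in MEFs and 76.5 to 94.2 CPM in mESCs. Of these, 1 of 2 tested genes was higher, and Sox17 and Foxa2 were at 0 in every MEF library. The higher gene was Tfap2c, at 2.90 to 4.61 CPM in MEFs and 50.6 to 78.8 CPM in mESCs. The other tested gene, Gata6, was not called and was lower in its mean in mESCs (30.1 CPM in MEFs, 16.8 CPM in mESCs). Neural markers summed to 92.7 to 137 CPM in MEFs and 63.9 to 76.3 CPM in mESCs, with 3 higher and 2 lower of 5 tested. Among the higher, Olig2 was at 0.240 CPM or less in MEFs and 19.0 to 30.4 CPM in mESCs. Among the lower, Tubb3 was at 68.1 to 109 CPM in MEFs and 25.8 to 29.5 CPM in mESCs. The part of such other cells in the transporter values was not tested, and in bulk RNA fewer cells of a type and less RNA per cell cannot be told apart.

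Amino acid transporters are membrane proteins that move amino acids into, out of or between compartments of the cell, and single carriers accept overlapping sets of substrates. Exchangers swap an amino acid inside the cell for another outside it, symporters couple uptake to sodium or proton gradients, and facilitative carriers work without such coupling. The supply they provide feeds protein synthesis and is sensed by the mTORC1 kinase complex, and some Slc6 carriers move GABA, taurine or creatine in place of the common amino acids.

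Counts were scaled by TMM, a factor per library that balances most genes between libraries, and expressed as CPM. A log2 fold change is the fitted one of mESCs over MEFs. Its standard error (SE) was derived from the fold change and its test statistic, and is approximate where a group is nearly empty. A gene was called when its p, adjusted by the Benjamini-Hochberg method over all 16580 tested genes, was under 0.05. A library's floor, the level of 3 counts, lay between 0.288 and 0.477 CPM. Counts came from the 3′ ends of transcripts and no length scaling was made, so CPM values are compared between cell types and not between genes.

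Of the 59 transporters, 32 passed the filter on low counts and were tested, and 27 did not. Among those tested, 6 were higher in mESCs (among them Slc1a5, Slc6a15, Slc7a3, Slc7a9 and Slc38a3), 9 were lower (Slc1a3, Slc1a6, Slc6a17, Slc7a1, Slc7a5, Slc36a4, Slc38a10, Slc43a1 and Slc43a3) and 17 were not called. The 15 calls were 46.9% of the tested transporters, near the 47.9% called over all tested genes, of which 22.8% were higher and 25.0% lower in mESCs. MEF and mESC libraries did not overlap for 16 tested transporters, or 50% of them, against 52.1% of all tested genes. Without scaling beyond library size the split became 12 higher and 6 lower, with a shift of the all-gene median from 0.04 to 0.32 on the log2 scale and of the higher share of all calls from 47.7% to 60.8%. Summed over all 59 genes, transporter levels ran from 1341 to 1635 CPM in MEFs and from 1564 to 1820 CPM in mESCs, so the totals overlapped.

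**Figure D1:**
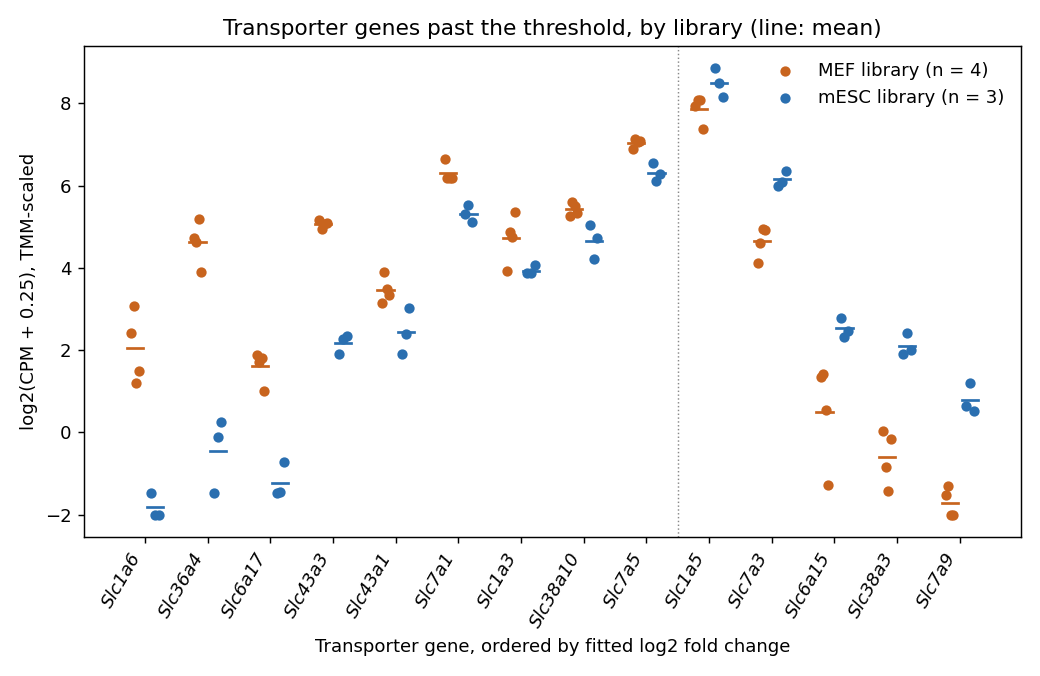
Level of 14 of the 15 called transporters in every library, as log2(CPM + 0.25) on the vertical axis, with MEF libraries (n = 4) in orange, mESC libraries (n = 3) in blue and a line at each mean. Genes are ordered by fitted log2 fold change, the dotted line parts the 9 lower from the 5 higher genes, and of the genes shown the cell types overlap only in Slc1a3.

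**Figure D2:**
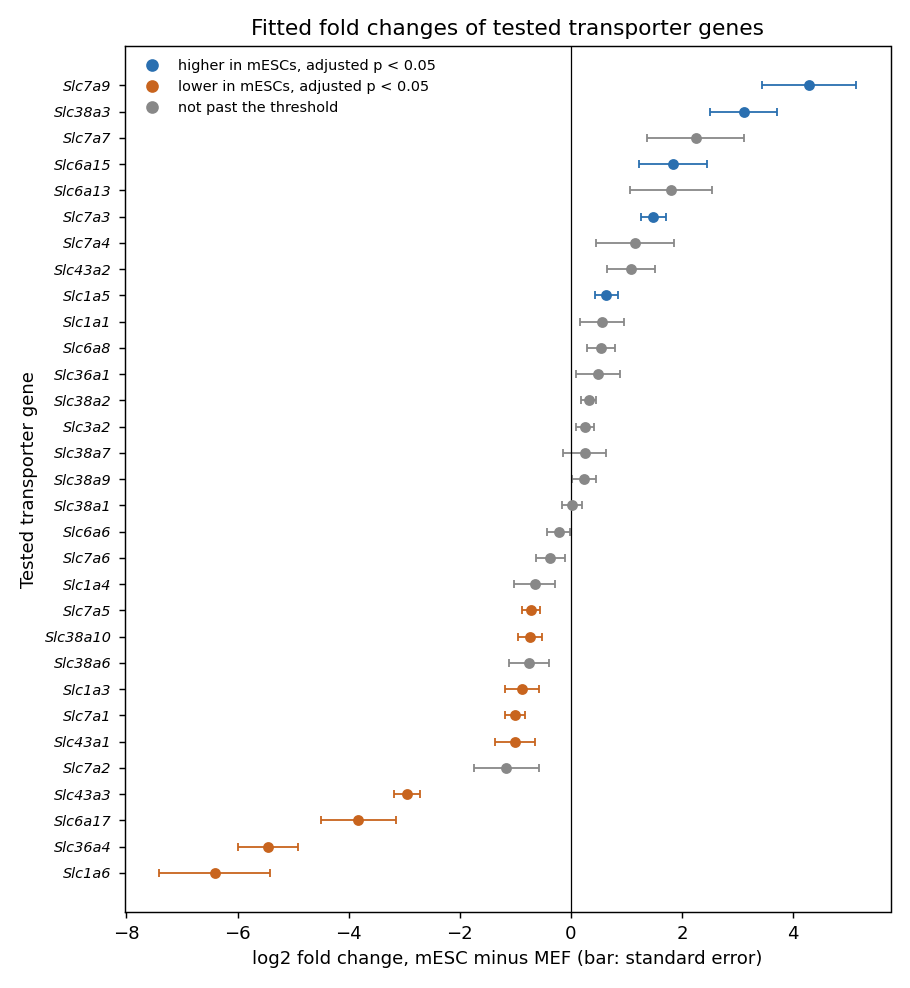
Fitted log2 fold change (mESC over MEF, horizontal axis) with its SE for 31 of the 32 tested transporters, colored by call. Values run from -6.41 for Slc1a6 to 4.29 for Slc7a9.

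Carriers of glutamate and aspartate, the Slc1 members that take up acidic amino acids with sodium, were lower in mESCs in 2 of 3 tested genes, Slc1a6 and Slc1a3, with Slc1a1 not called. Slc1a6, known from Purkinje neurons of the cerebellum, lies on chromosome 10 (GRCm38, 78780496 to 78814765). It was read at 5.08, 8.23, 2.04 and 2.54 CPM in MEFs and at 0.108, 0 and 0 CPM in mESCs. Every MEF library was above its floor and every mESC library below, with 140 counts in all MEFs and 1 in all mESCs. Scaled for depth, the pooled ratio was 117, with a 95% counting interval of 20.7 to 4668 that covers counting error only. The fitted log2 fold change was -6.41 (SE 0.995, adjusted p = 0.00036), and -8.19 without the mESC library of 8193825 counts, which holds the 1 mESC count.

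Slc36a4, a carrier of proline and tryptophan that is not driven by protons as its relatives are, showed the next largest difference among the lower genes (chromosome 9, 15709738 to 15743361). Its levels were 26.2, 24.7, 36.4 and 14.8 CPM in MEFs against 0.108, 0.682 and 0.944 CPM in mESCs. The mESC libraries held 1, 6 and 8 counts, the lowest MEF library 93, and the groups did not overlap. The log2 fold change was -5.45 (SE 0.542, adjusted p = 1.55e-05), and the pooled ratio of MEFs over mESCs was 46.5 (95% counting interval 28.0 to 83.5). Slc36a1, a proton-coupled carrier of small amino acids in lysosomes, was not called (3.05 to 10.8 CPM in MEFs, 8.45 to 9.67 CPM in mESCs, log2 fold change 0.49, adjusted p = 0.345). The 4 Slc36 members summed to 25.9 to 42.4 CPM in MEFs and 10.1 to 11.2 CPM in mESCs.

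Slc6a17, a neutral amino acid carrier of synaptic vesicles on chromosome 3 (107467543 to 107518018), was the third gene with nearly empty mESC libraries. It had 3.45, 3.05, 3.24 and 1.75 CPM in MEFs and 0.108, 0.114 and 0.354 CPM in mESCs, which are 11 to 36 counts against 1 to 3. The groups did not overlap. The log2 fold change was -3.82 (SE 0.676, adjusted p = 0.000865), or -4.53 without the mESC library of 7462710 counts, and the pooled ratio 15.8 (95% counting interval 6.52 to 49.7).

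The bases just before the annotated starts of these 3 genes are shown because they had the 3 lowest fold changes among the transporters. They are 250 bases each, 5′ to 3′ on the gene's strand, from RefSeq on GRCm38.p6, and capitals mark a match to CACGTG, the E-box, searched on both strands together with TGATGNAA, the core of the amino acid response element. Neither motif contains the other.
Slc1a6, chr10:78780246-78780495, plus strand: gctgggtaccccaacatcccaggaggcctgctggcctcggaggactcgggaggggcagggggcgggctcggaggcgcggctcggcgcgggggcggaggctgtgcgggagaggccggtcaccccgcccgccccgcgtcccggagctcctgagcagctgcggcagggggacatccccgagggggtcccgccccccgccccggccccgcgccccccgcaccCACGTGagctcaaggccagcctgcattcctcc
Slc36a4, chr9:15709488-15709737, plus strand: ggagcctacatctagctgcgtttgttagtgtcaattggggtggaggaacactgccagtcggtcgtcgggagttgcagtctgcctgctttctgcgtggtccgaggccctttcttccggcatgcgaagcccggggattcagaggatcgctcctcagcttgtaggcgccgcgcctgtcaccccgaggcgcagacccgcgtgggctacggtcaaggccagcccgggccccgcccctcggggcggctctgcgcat
Slc6a17, chr3:107518019-107518268, minus strand: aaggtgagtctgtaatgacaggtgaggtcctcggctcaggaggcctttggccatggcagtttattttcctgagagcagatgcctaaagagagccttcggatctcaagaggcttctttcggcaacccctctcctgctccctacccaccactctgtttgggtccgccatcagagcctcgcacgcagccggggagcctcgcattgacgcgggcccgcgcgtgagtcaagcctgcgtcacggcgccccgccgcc
Slc1a6 holds CACGTG at position -32 from its start, and neither motif is in the other printed windows. RefSeq windows were found for 41 of the 59 transporters, 60 windows in all, since some genes have several starts. CACGTG stands in 9 of these 60 windows and in 6.02% of all 32851 windows of that length, and TGATGNAA in 3 of 60 and in 3.45%. The printed windows of Slc1a6, Slc36a4 and Slc6a17 have 78.8%, 66% and 62% G or C, against a median of 52.4% over all windows. RefSeq gives Slc6a17 another start, inside the gene, whose window (chr3:107500741-107500990) has 48% G or C and neither motif. A match is a description of the letters only.

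The remaining glutamate carriers differed less. Slc1a3, the carrier known from astroglia, had 15, 29.0, 26.6 and 40.9 CPM in MEFs and 14.3, 14.3 and 16.5 CPM in mESCs. The lowest MEF library lay within the mESC range, and the log2 fold change of -0.88 (SE 0.308, adjusted p = 0.0359) lost its call without any one library other than the MEF library of 11441278 counts, at -0.96 to -0.65, and without scaling. Slc1a1 was read at 2.30 to 5.09 CPM in MEFs and 4.09 to 6.02 CPM in mESCs (log2 fold change 0.55, adjusted p = 0.281), and 31.9% of its exon bases are overlapped by a gene on the opposite strand. Slc1a2, the main glutamate carrier of astrocytes, had 36, 19, 9 and 6 counts in MEFs and 1, 8 and 7 in mESCs and was not tested.

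Of the neutral exchangers, Slc1a5, which brings glutamine and other neutral amino acids into the cell, was higher in mESCs. It was read at 245, 269, 269.7 and 165 CPM in MEFs and at 463, 362 and 286 CPM in mESCs, and the lowest mESC library stood above the highest MEF library. The log2 fold change was 0.64 (SE 0.207, adjusted p = 0.0255), a call that was lost without the mESC library of 8193825 counts (0.44) or that of 8057985 counts (0.66). Slc1a4, which exchanges serine, alanine and cysteine, ran the other way in its means, 17.3 ± 4.90 CPM in MEFs (SD, n = 4) and 11.0 ± 5.32 CPM in mESCs (SD, n = 3), and was not called (log2 fold change -0.65, adjusted p = 0.181).

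The heavy chain Slc3a2, the glycoprotein that carries several Slc7 light chains to the membrane, was at 201 to 261 CPM in MEFs and 236 to 337 CPM in mESCs, which overlap (log2 fold change 0.26, SE 0.16, adjusted p = 0.217), and it was called without scaling (0.54). Its partner Slc7a5, which exchanges leucine and other large neutral amino acids for glutamine, was lower in mESCs, at 119, 139, 133 and 137 CPM in MEFs against 94.0, 68.4 and 77.7 CPM in mESCs. The groups did not overlap, and the log2 fold change was -0.72 (SE 0.157, adjusted p = 0.00322). The other partners of Slc3a2 that were tested, Slc7a6 and Slc7a7, which exchange cationic for neutral amino acids, were not called. Slc7a6 had 19.4 ± 3.07 CPM in MEFs and 15.1 ± 4.64 CPM in mESCs (log2 fold change -0.37, adjusted p = 0.276). Slc7a7 had 0.0959 to 1.44 CPM in MEFs and 0.568 to 4.13 CPM in mESCs (log2 fold change 2.25, adjusted p = 0.0537), and it was called without the mESC library of 8057985 counts (2.72), with DESeq2 (2.29), with no filter beyond 1 count (2.21) and without scaling (2.54).

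Slc7a9, the light chain of the cystine and dibasic amino acid exchanger of the kidney, was the tested transporter with the highest fold change (chromosome 7, 35448796 to 35466036). MEF levels were 0.0959, 0.152, 0 and 0 CPM and mESC levels 1.30, 2.05 and 1.18 CPM. All MEF libraries were under their floor with 2 counts in total, and the mESC libraries held 12, 18 and 10 counts. The log2 fold change was 4.29 (SE 0.840, adjusted p = 0.00165) and the pooled ratio of mESCs over MEFs 23.9 (95% counting interval 6.19 to 204). Slc3a1, the heavy chain that Slc7a9 pairs with, reached at most 3 counts in a library and was not tested.

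The cationic transporters of Slc7 carry arginine, lysine and ornithine. Of 4 tested, Slc7a3 was higher and Slc7a1 lower in mESCs. Slc7a3, on chromosome X (101079210 to 101086020), was read at 17.1, 24.2, 30.3 and 30.2 CPM in MEFs and 63.4, 68.2 and 82.2 CPM in mESCs. Every mESC library was above every MEF library, with a log2 fold change of 1.49 (SE 0.220, adjusted p = 0.000261). Slc7a1, the widely expressed member on chromosome 5 (148327410 to 148399904), was read at 99.96, 73.0, 72.7 and 72.5 CPM in MEFs and 39.1, 45.8 and 34.3 CPM in mESCs. The groups did not overlap, the first MEF library stood above the others, and the log2 fold change was -1.002 (SE 0.186, adjusted p = 0.0012). The family's summed level was 100.2 to 121 CPM in MEFs and 107 to 120 CPM in mESCs, so the sums overlapped while these members moved in opposite directions. Slc7a2 (3.10 ± 1.70 CPM in MEFs, 1.38 ± 0.515 CPM in mESCs, log2 fold change -1.16, adjusted p = 0.128) and Slc7a4, whose substrates are uncertain (1.28 ± 0.998 and 2.77 ± 1.74 CPM, log2 fold change 1.15, adjusted p = 0.207), were not called, and Slc7a2 was called at -1.43 without the MEF library of 7312679 counts.

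Sodium-coupled neutral transporters of the Slc38 family were tested in 7 of 10 members, with 1 higher, 1 lower and 5 not called. Slc38a3, which carries glutamine and histidine, was the higher one (chromosome 9, 107650634 to 107669530). It had 0.767, 0.305, 0.120 and 0.636 CPM in MEFs, which are 8, 2, 1 and 4 counts, and 3.47, 5.11 and 3.78 CPM in mESCs, from 32, 45 and 32 counts. The groups did not overlap, with a log2 fold change of 3.11 (SE 0.601, adjusted p = 0.00151) and a pooled ratio of 8.67 (95% counting interval 5.03 to 16). Slc38a10, a less studied member, was lower in mESCs, at 37.9, 48.2, 45.1 and 39.9 CPM in MEFs against 32.6, 18.2 and 26.3 CPM. The log2 fold change of -0.73 (SE 0.221, adjusted p = 0.0185) was not called without the mESC library of 8057985 counts (-0.54) or without scaling.

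Slc38a2, the glutamine and alanine carrier that is known to respond to amino acid shortage, missed the threshold although its libraries did not overlap, at 242 to 305 CPM in MEFs and 321 to 361 CPM in mESCs (log2 fold change 0.32, SE 0.134, adjusted p = 0.0721). It was called with DESeq2 (0.34) and without scaling (0.60). Slc38a1, its neighbour in the genome and in substrates, was at 95.1 to 156 CPM and 130.1 to 139 CPM (log2 fold change 0.02, adjusted p = 0.933). Slc38a9, the lysosomal arginine sensor of mTORC1, had 17.5 ± 2.55 CPM in MEFs and 20.5 ± 2.74 CPM in mESCs (log2 fold change 0.23, adjusted p = 0.419). Slc38a7, another lysosomal carrier, had 6.91 ± 2.70 and 8.24 ± 1.2 CPM (log2 fold change 0.25, adjusted p = 0.635), with one MEF library at 2.90 CPM and the others at 7.77 to 8.59 CPM. Slc38a6 had 7.47 ± 2.04 and 4.39 ± 0.848 CPM (log2 fold change -0.76, adjusted p = 0.109), and 35.5% of its exon sequence in stretches of 50 bases is shared with other genes.

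Facilitative transporters of the Slc43 family summed to 46.6 to 47.3 CPM in MEFs and 11.9 to 21.0 CPM in mESCs, with 2 of 3 members lower. Slc43a3, known as a carrier of purine nucleobases, lies on chromosome 2 (84936579 to 84958509) and was read at 35.7, 30.3, 33.1 and 33.9 CPM in MEFs and 3.47, 4.54 and 4.84 CPM in mESCs. The MEF libraries were close to each other, none overlapped the mESC libraries, and the gene was 7.75-fold higher in MEFs (log2 fold change -2.95, SE 0.230, adjusted p = 2.63e-06). Slc43a1, a carrier of large neutral amino acids that lies within 100000 bases of Slc43a3 (84838850 to 84863594), had 8.54, 14.6, 11.0 and 9.86 CPM in MEFs and 3.47, 5.0 and 7.90 CPM in mESCs. The log2 fold change was -1.01 (SE 0.360, adjusted p = 0.0388), a call lost without scaling and, at -1.07 to -0.77, without any one library other than the MEF library of 11441278 counts and the mESC library of 7462710 counts. Slc43a2, which carries the same substrates, was read at 1.68 to 3.50 CPM in MEFs and 3.98 to 8.26 CPM in mESCs, without overlap but not called (log2 fold change 1.08, SE 0.428, adjusted p = 0.0585), though it was called with DESeq2 (1.11) and without scaling (1.36).

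Slc6a13, which carries GABA and taurine, was at 0.240 to 1.83 CPM in MEFs and 1.59 to 4.72 CPM in mESCs (log2 fold change 1.80, adjusted p = 0.0649), and it was called without the MEF library of 7312679 counts (2.54), without scaling (2.10) and with 10 counts required in all MEF or all mESC libraries (1.78).

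Of the Slc6 carriers of amino acids, taurine and creatine, Slc6a15 was higher in mESCs and Slc6a17 lower, both neutral amino acid carriers known from neurons. Slc6a15 (chromosome 10, 103367783 to 103419377) had 2.30, 2.44, 1.2 and 0.159 CPM in MEFs, from 24, 16, 10 and 1 counts, and 6.61, 4.77 and 5.31 CPM in mESCs, from 61, 42 and 45 counts. The groups did not overlap, and the log2 fold change of 1.84 (SE 0.610, adjusted p = 0.0289) lost its call, at 1.69 to 1.93, without the MEF library of 9176467 counts or any one mESC library. The taurine carrier Slc6a6 was at 129.9 to 236 CPM in MEFs and 144 to 170.4 CPM in mESCs (log2 fold change -0.22, adjusted p = 0.433). The creatine carrier Slc6a8 had 9.99 ± 1.53 CPM and 14.5 ± 2.55 CPM (log2 fold change 0.54, adjusted p = 0.107), and it was called without scaling (0.82).

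**Figure D3:**
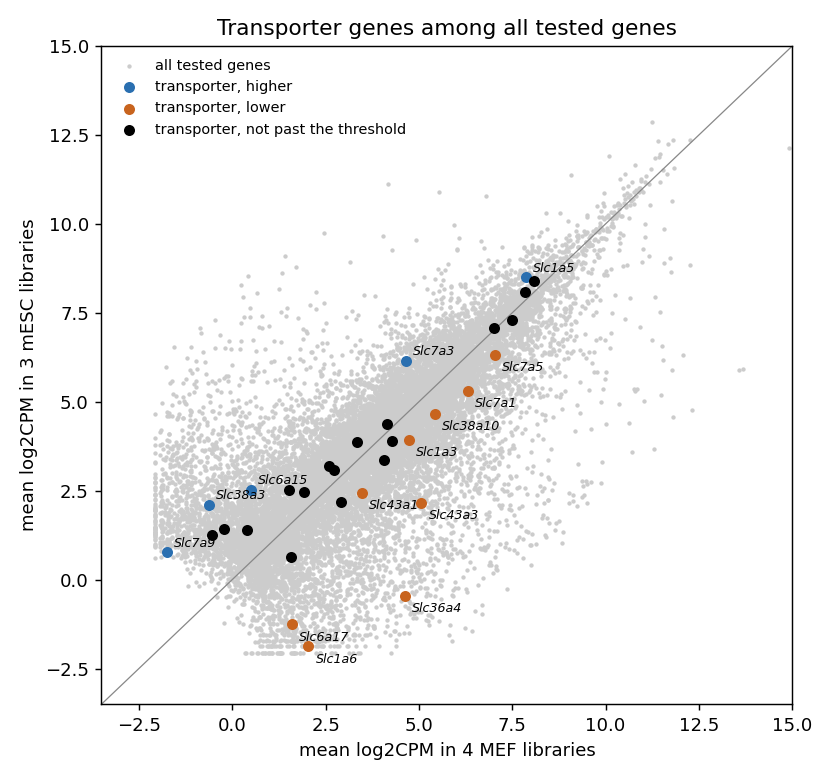
Mean log2CPM over 4 MEF libraries (horizontal axis) against the mean over 3 mESC libraries (vertical axis) for all 16580 tested genes in gray, with 31 of the 32 tested transporters colored by call. Slc36a4, Slc1a6 and Slc43a3 lie below the diagonal and Slc7a9 and Slc38a3 above it, while the uncalled transporters lie close to it or at low levels.

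The 27 transporters that were not tested reached at most 36 counts in a library, and 9 stayed at or under 3 counts in all libraries. Slc7a12 and Slc7a13 had 0 counts throughout, and Slc6a11 and Slc6a12 had 1 count at most. Slc6a5, Slc6a18 and Slc7a10 reached 2 counts and Slc3a1 and Slc6a19 reached 3. Slc1a7, Slc6a2 and Slc36a3 reached 5 counts, Slc6a9, Slc6a14 and Slc38a8 reached 6, and Slc6a3, Slc7a14 and Slc38a11 reached 7. Higher counts were held by Slc7a8 and Slc38a5 (9 each), Slc7a15 (10), Slc36a2 (12), Slc6a21 (13), Slc6a4 (15), Slc6a16 (27) and Slc6a7 (31). Libraries did not overlap in CPM for Slc36a3, Slc38a5, Slc6a4 and Slc6a16, higher in mESCs, and Slc1a2, lower. These separations rest on few counts. The unscaled counts of Slc1a2 overlap, with 6 in the lowest MEF library and 1, 8 and 7 in mESCs. Slc36a3 had 1 count in all MEFs and 2, 5 and 2 in mESCs. The share without overlap among all genes that were not tested was not computed. Slc38a5, a glutamine carrier, had 2, 1, 0 and 0 counts in MEFs and 9, 6 and 9 in mESCs, while the serotonin carrier Slc6a4 had 8, 4, 5 and 4 counts against 11, 15 and 9. Over all 59 genes the mean CPM was higher in mESCs for 36 and lower for 21. Of these, 18 and 7 were not tested and rest on few counts. The share of all genes with a higher mean in mESCs was not computed, so these numbers are not read as a trait of the transporters.

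To compare close relatives within a library, 7 pairs were described by the log2 ratio of their CPM with 1 CPM added to each gene, an addition that weighs on the ratios of low genes such as Slc7a7 and Slc7a8. Each was tested by an exact permutation test of the difference in means in both directions over the 35 ways to part the libraries into 4 and 3, for which 0.0286 is the lowest p that can be reached. The ratio of Slc7a1 to Slc7a3 was 1.63 ± 0.59 (SD, n = 4) among MEF libraries and -0.83 ± 0.36 (SD, n = 3) among mESC libraries, a difference of -2.45 (exact permutation p = 0.0286, adjusted over the 7 pairs 0.1). The ratio of Slc43a1 to Slc43a2 went from 1.70 ± 0.57 to -0.07 ± 0.35 (difference -1.77, exact permutation p = 0.0286, adjusted 0.1). In both of these pairs each gene alone was already without overlap between cell types, and the genes of a pair moved in opposite directions. Their ratios therefore had to separate, and these p-values restate the single-gene values and add no separate support. Slc6a6 to Slc6a8 differed by -0.67 (exact permutation p = 0.0571), Slc7a6 to Slc7a7 by -1.53 and Slc1a4 to Slc1a5 by -1.30 (exact permutation p = 0.0857 each), all with an adjusted p of 0.12. Slc7a5 to Slc7a8 differed by -0.74 (exact permutation p = 0.143, adjusted 0.167) and Slc38a1 to Slc38a2 by -0.28 (exact permutation p = 0.257, adjusted 0.257). MEF and mESC libraries were apart in the first 3 of these pairs, and 0 of 7 passed at an adjusted p of 0.05. For Slc6a6 to Slc6a8 they nearly touched, at 3.530 in the lowest MEF library and 3.525 in the highest mESC library. With 7 pairs and this lowest p, at least 5 pairs would have to be at it for any to pass, so the missed threshold says little about a single pair.

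**Figure D4:**
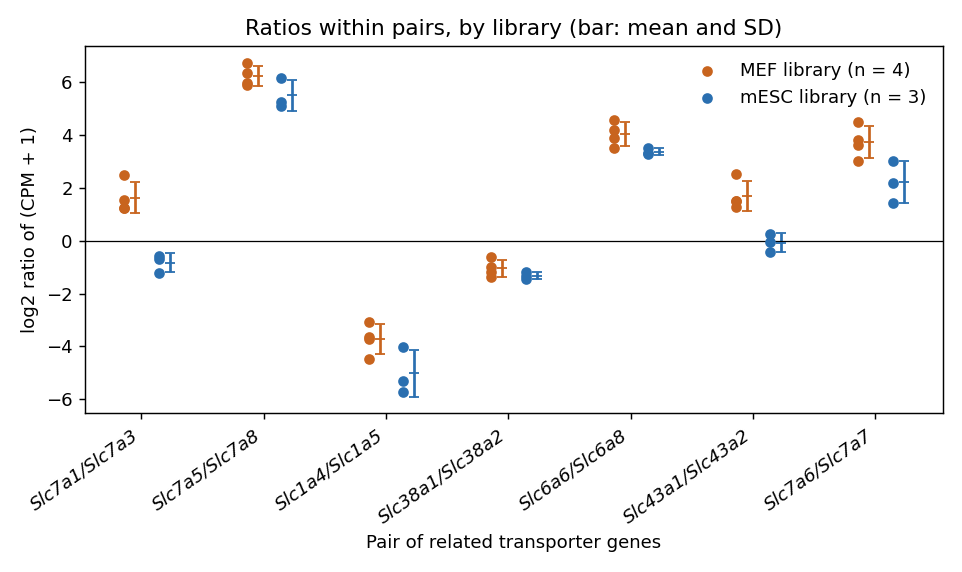
Log2 ratio of CPM, with 1 CPM added to each gene, for 7 pairs of related transporters in every library, with the mean and SD of each cell type (MEF n = 4, mESC n = 3). The ratio of Slc7a1 to Slc7a3 is higher in every MEF library than in every mESC library. The line at 0 does not rank the genes of a pair, since CPM values are not compared between genes.

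The 59 genes were placed on GRCm38 with the GENCODE M21 annotation, and 16 lie within 100000 bases of another transporter of the set. Slc43a1 and Slc43a3 were both lower in mESCs, and Slc38a1 and Slc38a2 were both not called, while Slc36a1 was not called and its neighbours Slc36a2 and Slc36a3 were not tested. More than 10% of the exon bases of 5 transporters are overlapped by a gene on the opposite strand. Of these, Slc1a1 and Slc7a4 were tested and not called, and Slc3a1, Slc6a9 and Slc7a10 were not tested.

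Genes that sense, use or otherwise move amino acids were read from the same fit as lists, against the background of 47.9% called and a median log2 fold change of 0.04 over all tested genes. Of 16 amino acid response genes, which the cell switches on when amino acids are short, 1 was higher and 6 lower in mESCs (median log2 fold change -0.36). The lowest called were Vldlr, a lipoprotein receptor, at -3.44 (adjusted p = 0.000367) and Cebpb, a transcription factor, at -2.96, and the 1 higher was Ddit4, an inhibitor of mTORC1, at 0.92 (adjusted p = 0.0147). Of 24 tested genes of mTORC1 amino acid sensing, 5 were higher and 6 lower (median 0.36). Rragc, a GTPase that recruits mTORC1 to lysosomes, was at -1.63 and Lamtor1, its lysosomal anchor, at -1.14, while the kinase Mtor was at 1.17 and Rragd, a relative of Rragc, at 1.88.

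Of 20 cytosolic aminoacyl-tRNA synthetases, the enzymes that load amino acids onto tRNAs, 0 were higher and 4 lower (median -0.10), with Sars at -0.82 and Hars at -0.73 the lowest. Other carriers of amino acids, a list that includes Slc6a20a and Slc6a20b, gave 2 higher and 2 lower of 17 tested (median 0.06). The mitochondrial carrier of basic amino acids Slc25a29 was at -2.02 and Pqlc2, which exports cationic amino acids from lysosomes, at -0.92. Slc25a13, the mitochondrial aspartate and glutamate carrier, was at 2.51 and Slc15a1, a carrier of short peptides, at 3.92. Of 19 tested genes of glutamine, glutamate and branched-chain metabolism 7 were higher and 2 lower (median 0.48). Oat, which turns ornithine into a precursor of proline and glutamate, was at -2.28 and Aldh18a1, at the entry to proline synthesis, at -1.68, while the transaminases Bcat2 and Got1 were at 1.69 and 1.86.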

How the data were processed

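RNA-seq gene counts of 4 MEF and 3 mESC libraries were analysed. The authors' libraries were 3′-biased and carried molecular identifiers. Reads were trimmed with Cutadapt, aligned to mm10 with STAR (2.4.2a per the labels; the methods name another version), collapsed with Je and counted on exons with featureCounts, uniquely mapped reads only, and the authors deposited whole-number counts without normalization. The annotation release and strand setting are not given in the sources used here, so genes with overlapping antisense exons are uncertain. Libraries are named by their total counts, since the last number of a column is not stated to be that of a sample. Libraries of one cell type differed by more than sampling noise, by the chi-square per degree of freedom of each pair. Among MEF libraries it was 18.3 between those of 11441278 and 7312679 counts and 23.9 between those of 9176467 and 6528643 counts. The other MEF pairs were at 31.4 to 37.99, and the mESC pairs at 18.1 to 26.8. The cause was not tested, and all MEF libraries were treated as independent. The number of unused per-sample columns was 0.

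All 55484 rows were fitted with edgeR 4.0.16 (R 4.3.3, limma 3.58.1), with TMM, filterByExpr and the quasi-likelihood test on 7 libraries with no covariate, and calls were made under an adjusted p (Benjamini-Hochberg) of 0.05. Totals of 6528643 to 11441278 counts put the floor of 3 counts at 0.288 to 0.477 CPM; intervals and floors cover counting error only. Pairs were tested with scipy 1.17.1. The two-sided p was first computed as the doubled smaller tail; after those p-values had been seen it was replaced by the share of splits with an absolute difference at least as large, and both were run. The code was tested on simulated data, where changed genes with very low counts were often not recovered. The first pass criterion, a share of all changed genes, was missed for that reason. It was then replaced by criteria on genes with higher levels, fitted fold and false calls.

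The transporters and gene lists were chosen with earlier results of these data known. Every tested transporter is named except 1, whose result is not reported here, those called with an absolute log2 fold change of 1 or more in every library, those not tested with their highest count, and of each list the 2 highest and 2 lowest called genes. Alternatives were no scaling, DESeq2 1.42.0 and its size factors, other count filters, a test against a fold change of 2, other added CPM for pairs, and each library left out.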

Additional observations from a re-analysis of the deposited data

Results flagged for a closer look

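In groups of 4 MEF libraries, the gap of the highest or lowest library to the next, as a share of the group's range, was compared with Dixon's 95% critical ratio. Of 39 values checked 2 passed, where 1.95 are expected by chance at 1 in 20. Slc7a1 stood at 99.96 CPM in the MEF library of 11441278 counts, against 72.5 to 73.0 CPM in the others. Slc38a7 stood at 2.90 CPM in the MEF library of 7312679 counts, against 7.77 to 8.59 CPM in the others. The cause of neither was tested.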

How the results depend on the processing

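Of the 15 called transporters, 8 kept their call under all 13 alternatives (among them Slc1a6, Slc6a17, Slc7a3, Slc7a9, Slc36a4, Slc38a3 and Slc43a3), 2 lost it only when tested against a fold change of 2 (Slc7a1 and Slc7a5) and 5 lost it under other settings too. Transporters called higher and lower numbered 12 and 6 without scaling, 9 and 9 with DESeq2, 4 and 4 against a fold change of 2, and 4 to 7 and 6 to 9 with 1 library left out. Among 411 values of single transporters, 28 lost and 14 gained a call and 6 changed sign: Slc6a6 at 0.0673 without scaling, Slc38a1 at -0.0157 with no filter beyond 1 count and -0.00300 with 10 counts required in all MEF or all mESC libraries, and, with a library left out, Slc38a1 at -0.12 to 0.10 and Slc38a7 at -0.00692 to 0.35.

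Over all tested genes, calls fell from 7938 to 3991 (1714 higher, 2277 lower) against a fold change of 2 and were 7032 to 7522 with a library left out. Without scaling, amino acid response genes had 4 higher, mTORC1 genes 8 higher, synthetases 5 higher and 1 lower, other carriers 6 higher and 0 lower, and metabolism genes 11 higher. Against a fold change of 2 the counts were 0 higher and 2 lower, 1 and 1, 0 lower, 0 lower, and 1 higher in the same order. Synthetases had 1 higher with DESeq2's size factors and 2 with DESeq2. With 1 library left out, amino acid response genes had 0 to 2 higher, mTORC1 genes 3 to 5 higher, synthetases 0 to 1 higher and 2 to 4 lower, other carriers 2 to 3 higher and 0 to 3 lower, and metabolism genes 4 to 8 higher and 2 to 3 lower. The cause of these shifts was not tested.

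With the smaller tail doubled, an alternative added after seeing the data, the smallest p of a pair was 0.0571 (exact permutation), the smallest adjusted p 0.133, and 0 of 7 pairs passed, as in the reported version. With 2 CPM added 4 pairs reached an adjusted p of exactly 0.05 and none fell under it. Pair differences with 1 library left out ran from -1.80 to -0.96 for Slc1a4 to Slc1a5, from -1.07 to -0.54 for Slc7a5 to Slc7a8, from -0.39 to -0.14 for Slc38a1 to Slc38a2, from -0.85 to -0.49 for Slc6a6 to Slc6a8, and from -1.93 to -1.14 for Slc7a6 to Slc7a7. No paired analysis was possible because the columns carry no number that is stated to be that of a sample. Depth limits the genes with few counts: 27 transporters fell under the count filter of the reported fit, and 57 of the 59 were fitted when that filter was removed.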
